A study of Mus musculus with 16 samples.

Results

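The genes described here are the receptors that bind Wnt proteins through Frizzled and the Lrp5/6 co-receptors in the mouse spinal cord, taken by name as Fzd1 to Fzd8, Lrp5 and Lrp6. They are 10 of the 55487 genes in the deposited counts. Dissociated cervical cord from around a dorsal column lesion gave 1 library of 3′ RNA ends per mouse. WT mice were Ryk+/+,GFAPcreERT2 and cKO mice were Rykfl/fl,GFAPcreERT2, so both genotypes carried the tamoxifen-inducible Cre, and the study gave tamoxifen from before the operation. Every mouse was 8 to 10 weeks old. Each genotype was taken uninjured or at 1, 7 or 14 days (d) after spinal cord injury (SCI), with 2 mice in each of the 8 conditions and 16 in all. The labels write Sham for the mice that the paper calls uninjured. A GFAP promoter drives the Cre, so deletion is meant for astrocytes and depends on how far that promoter reaches in each mouse.

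Wnt proteins bind the extracellular domain of a Frizzled, and the Frizzled decides with its co-receptors which route the signal takes. Together with Lrp5 or Lrp6 it stabilises β-catenin and switches on target genes, whereas Frizzleds without Lrp5 or Lrp6 can act on the cytoskeleton and on cell polarity. In the central nervous system this pathway builds and keeps the blood-brain barrier in endothelial cells and guides growing axons. Ryk, the deleted gene, is another Wnt receptor.

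The counts covered 18203 cells in the 17 clusters of the authors, whose numbers and names are used here. WT 1 d replicate 2 had 1 cell with 266 UMIs (unique molecular identifiers, each a captured RNA molecule), none of them from the 10 genes. It was left out, so that 15 mice were used and WT at 1 d is 1 mouse. The 15 mice had 208 to 1845 cells and 536263 to 9008729 UMIs, with a median of 3032957. In the 4 replicate 1 mice of both genotypes taken at 1 d or 7 d, the median was 414 to 548 UMIs per cell, against 1040.5 to 3637 in the other 11. Cell names disagreed with the sample titles about the condition of 6 mice, all of them replicate 2, and titles were followed. Genotype was among the disagreements. By the names, WT uninjured and WT 14 d replicate 2 are cKO mice of the same times. They make cKO uninjured replicate 2 a WT 7 d mouse, WT 7 d replicate 2 a WT 1 d mouse and cKO 14 d replicate 2 a cKO 7 d mouse. The left-out WT 1 d replicate 2 was also among the 6. Libraries shared cell barcodes in 432 cells (2.37% of all), 166 of the 17937 distinct barcodes being seen in more than 1 library. A level is given as CPM, the UMIs of a gene per 1000000 UMIs in the cells of 1 mouse in a cluster with at least 10 of its cells, and as the mean over mice ± SD. These 3′ UMIs are not scaled by transcript length, and capture may differ between genes. Where genes are set beside each other, as UMIs or as shares of UMIs, the values describe captured molecules and keep this limit.

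Cluster names were compared with marker genes. Cluster 1 had 8 of 8 endothelial markers and 4 of them among its leading 10 genes, and pericytes (Cluster 9) and fibroblasts (Cluster 14) were as clear, with 4 and 3 in the leading 10. Cluster 5 had 2 of the 8 astrocyte markers in its leading 10, Cluster 7 had 0, and Cluster 2 had 0 and 1 neuronal marker, so sums over them are called Clusters 2, 5 and 7 together. Clusters 4 and 8 (oligodendrocytes) and Cluster 10 (microglia) also had 0 of their own markers in the leading 10, and their names are used here as labels. Cluster 13, for which the deposited label reads Unk, was ependymal-like by its markers, with 5 of 5 counted and 2 in the leading 10.

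Fzd6 and Fzd4 were the Frizzleds of endothelial cells. Fzd4 (ENSMUSG00000049791.4, chromosome 7, 89404355 to 89413134 on GRCm38, 2 exons in GENCODE) is the receptor for the ligand norrin and is needed for the retinal and brain vasculature. Its level was 134 ± 62.7 CPM (SD, n = 15 mice) in endothelial cells, from 1649 UMIs. In the next clusters it was 61.1 ± 112 CPM in red blood cells (n = 4, 11 UMIs in all) and 57.7 ± 39.4 CPM in pericytes (n = 15). The 72.9 CPM between the first and the second was larger than the endothelial SD and smaller than that of the red blood cells. The other clusters lay at or below 43.6 ± 131 CPM, in Cluster 2, where 7 UMIs were counted. That mean was carried by WT 7 d replicate 1 at 438 CPM, and the median was 0 CPM (n = 11). Fibroblasts came next, at 24.3 ± 23.6 CPM (n = 9). After each cell was thinned to 1000 UMIs, 12.9% of 1978 endothelial cells had a Fzd4 UMI (exact binomial 95% interval 11.4% to 14.4%), against 0.617% of 972 cells (0.227% to 1.34%) in oligodendrocytes of Cluster 4. How much of the latter is free RNA was not tested.

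Fzd6 (ENSMUSG00000022297.15, chromosome 15, 39006034 to 39038188, 7 exons) is known for tissue polarity, as in the orientation of hairs. It reached 157 ± 43.0 CPM in endothelial cells (n = 15) and 101 ± 51.0 CPM in pericytes (n = 15), and this step was larger than either SD. Red blood cells followed at 57.4 ± 115 CPM, from 3 UMIs in all, and then Cluster 13 at 35.3 ± 43.9 CPM. In thinned cells, 15.6% of endothelial cells and 10.8% of 508 pericytes had a Fzd6 UMI, against 0.309% of 972 cells in Cluster 4. Without thinning it was seen in 22 of 1012 cells of Cluster 7, or 2.17% (1.37% to 3.27%).

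Endothelial cells also had the highest mean of Lrp5 (ENSMUSG00000024913.16, chromosome 19, 3584828 to 3686564, 23 exons), the co-receptor that works with Fzd4 in norrin signalling. It was 78.0 ± 22.3 CPM there, 76.9 ± 33.8 CPM in pericytes (both n = 15) and 62.4 ± 23.9 CPM in microglia of Cluster 6 (n = 14). These 3 did not differ beyond their spread. Cluster 2 had 54.9 ± 128 CPM from 32 UMIs, a mean carried by WT 7 d replicate 1 at 438 CPM. Its median was 23.7 CPM (n = 11). Lrp5 was lowest in myeloid cells (4.40 ± 6.86 CPM, n = 5) and in Cluster 8 oligodendrocytes (4.40 ± 6.89 CPM, n = 14).

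Lrp6 (ENSMUSG00000030201.15, chromosome 6, 134446476 to 134566965, 23 exons), the more widely used co-receptor in development, had 6037 UMIs, more than any other of the 10 genes. Its mean was at least 20 CPM in 16 of the 17 clusters. Fibroblasts came first at 272 ± 167 CPM (n = 9), then endothelial cells at 160.0 ± 31.5 CPM (n = 15), oligodendrocyte precursors (OPC, Cluster 11) at 150.2 ± 55.7 CPM (n = 14) and Schwann cells at 141 ± 130.4 CPM (n = 5). Steps between neighbours in this order were within the spread over mice, except the last one, from 52.1 ± 29.1 CPM in microglia of Cluster 10 to 18.2 ± 26.0 CPM in myeloid cells.

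Frizzled UMIs here are those of Fzd1 to Fzd8 only. Of the 4121 Frizzled UMIs in endothelial cells, Fzd6 made 48.2% (exact binomial 95% interval 46.7% to 49.8%) and Fzd4 40.01% (38.5% to 41.5%), 88.2% between them. Over single mice the share of Fzd6 ran from 32.7% to 59.7% and that of Fzd4 from 25.7% to 59.1%, so their order was not the same in every mouse. More Fzd4 than Fzd6 UMIs were counted in 4 of 15 mice, and the ratio of Fzd4 to Fzd6 UMIs had a median of 0.792, a minimum of 0.455 and a maximum of 1.81. A UMI of each was seen in 513 of the 4201 endothelial cells, Fzd4 in 882 and Fzd6 in 1024. Lrp5 was in 619 of these cells and Lrp6 in 997, with 305 holding Fzd4 and Lrp5, 471 Fzd4 and Lrp6, 352 Fzd6 and Lrp5, and 544 Fzd6 and Lrp6. Deeper cells show more of every gene, so these joint counts were not tested, and no doublet caller was run. Pericytes had the same leading pair, with 46.0% Fzd6 (42.3% to 49.7%) and 24.8% Fzd4 (21.7% to 28.0%) of 735 UMIs.

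**Figure D1:**
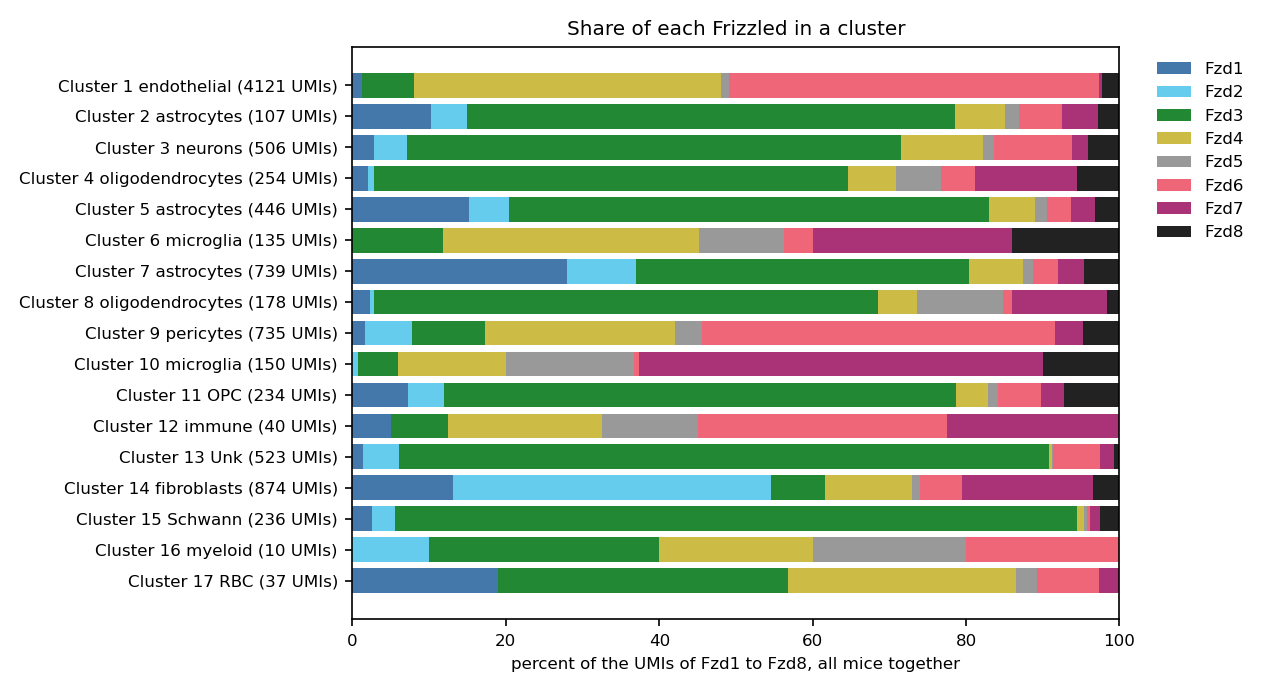
Percent of the UMIs of Fzd1 to Fzd8 that each Frizzled gave in each cluster, all mice together, with the number of Frizzled UMIs beside the cluster name. Fzd6 and Fzd4 fill 88.2% of the endothelial bar, and Fzd3 fills 84.7% of the bar of Cluster 13.

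In astrocytes Fzd3 and Fzd1 led. Fzd3 (ENSMUSG00000007989.7, chromosome 14, 65192449 to 65262463, 7 exons) steers axons during development through the polarity route. It made 62.6% of 446 Frizzled UMIs in Cluster 5 (57.9% to 67.1%) and 43.4% of 739 in Cluster 7 (39.8% to 47.1%). Cluster 5 had a mean of 85.1 ± 43.8 CPM (n = 14) and Cluster 7 one of 64.2 ± 42.2 CPM (n = 15), a step within the spread.

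Fzd1 (ENSMUSG00000044674.6, chromosome 5, 4753839 to 4758035, 1 exon) made 15.2% of the Frizzled UMIs of Cluster 5 and 28.0% of those of Cluster 7. It had its highest means in Cluster 7 (56.7 ± 26.6 CPM, n = 15), fibroblasts (56.7 ± 56.1 CPM, n = 9) and Cluster 5 (37.5 ± 33.2 CPM, n = 14), which did not differ beyond their spread. No other cluster passed the 7.53 ± 14.2 CPM of pericytes. In microglia of Cluster 6 it had 0 UMIs in 1316 cells, where 3 UMIs would give 0.715 CPM.

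Fzd3 was highest outside astrocytes. Its mean was 319.9 ± 113 CPM in Cluster 13 (n = 10) and 309.8 ± 79.1 CPM in Schwann cells (Cluster 15, n = 5), and the fall from there to Cluster 5 was larger than the SD of any of the 3. In Cluster 13 the lowest, median and highest mouse had 140.4, 348 and 502 CPM, from 2 to 162 UMIs per mouse, and in Schwann cells 209.9, 335 and 386 CPM. Every one of these 15 values was above the highest value of Fzd3 in Cluster 7, 134 CPM, and 14 of them above 146 CPM, its highest in Cluster 5. Fzd3 made 84.7% of 523 Frizzled UMIs in Cluster 13 (81.3% to 87.7%) and 89.0% of 236 in Schwann cells (84.3% to 92.7%). With cells thinned to 1000 UMIs, which left 7 mice, the mean in Cluster 13 was 205 CPM.

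Fzd3 was also the leading Frizzled of neurons (64.4% of 506 UMIs), of both oligodendrocyte clusters (61.8% of 254 in Cluster 4 and 65.7% of 178 in Cluster 8) and of OPC (66.7% of 234). Levels there were 33.2 ± 18.1 CPM in neurons (n = 15), 33.7 ± 25.2 CPM in Cluster 4 (n = 15), 39.2 ± 19.0 CPM in Cluster 8 (n = 14) and 64.1 ± 32.3 CPM in OPC (n = 14). It was nearly absent from immune cells of Cluster 12, at 0.750 ± 2.37 CPM (n = 10, 3 UMIs), and from microglia, where Cluster 6 had 3.39 ± 3.95 CPM and Cluster 10 had 4.26 ± 9.91 CPM (both n = 14).

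In fibroblasts Fzd2 led. Fzd2 (ENSMUSG00000050288.6, chromosome 11, 102604396 to 102608058, 1 exon), a receptor for Wnt5a, was at 156 ± 85.0 CPM there (n = 9). The next cluster, Cluster 13, had 27.7 ± 23.4 CPM (n = 10), a step larger than either SD, and the 6 clusters after it lay between 3.89 and 16.9 CPM. Fibroblasts gave 362 of its 574 UMIs. The lowest, median and highest mouse had 0, 134 and 277 CPM. By mouse, 3 UMIs or fewer stood behind the 127 CPM of WT uninjured replicate 2, the 184 CPM of WT 1 d replicate 1 and the 0 CPM of cKO 1 d replicate 1, whereas 208 UMIs stood behind the 209 CPM of cKO 7 d replicate 2. The 6 mice with more than 3 UMIs ranged from 90.2 to 277 CPM, with WT and cKO mice at both ends of the order.

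Fzd7 (ENSMUSG00000041075.8, chromosome 1, 59482424 to 59486955, 1 exon), a Frizzled known from stem cells, was at 85.0 ± 79.7 CPM in fibroblasts (n = 9) and next at 19.8 ± 15.9 CPM in microglia of Cluster 10 (n = 14), a step within the spread. Fzd8 (ENSMUSG00000036904.6, chromosome 18, 9212163 to 9218136, 1 exon) had 311 UMIs and means of 25.8 ± 44.2 CPM in fibroblasts (n = 9) and 18.2 ± 15.3 CPM in Cluster 7 (n = 15), and the 16 other clusters all lay within the SD of fibroblasts. The fibroblast mean of Fzd8 includes 136 CPM in cKO 1 d replicate 1, from 1 UMI. Its medians were 13.1 CPM in fibroblasts and 13.7 CPM in Cluster 7, so fibroblasts do not lead by the median. Of 874 Frizzled UMIs in fibroblasts, Fzd2 made 41.4% (38.1% to 44.8%), Fzd7 17.05%, Fzd1 13.2% and Fzd4 11.4%.

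Fzd5 (ENSMUSG00000045005.9, chromosome 1, 64730558 to 64737751, 2 exons of which 1 is coding) was low everywhere, with 194 UMIs in all. Pericytes had its highest mean, 10.99 ± 10.2 CPM (n = 15), and 12 other clusters lay within that spread. Microglia had few UMIs of Fzd1 to Fzd8, 135 in Cluster 6 and 150 in Cluster 10, against 286 and 148 UMIs of Lrp5 and 364 and 252 of Lrp6. In Cluster 10, Fzd7 made 52.7% (44.4% to 60.9%) of the Frizzled UMIs, and in Cluster 6 Fzd4 made 33.3% (25.5% to 42.0%) and Fzd7 25.9% (18.8% to 34.2%).

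**Figure D2:**
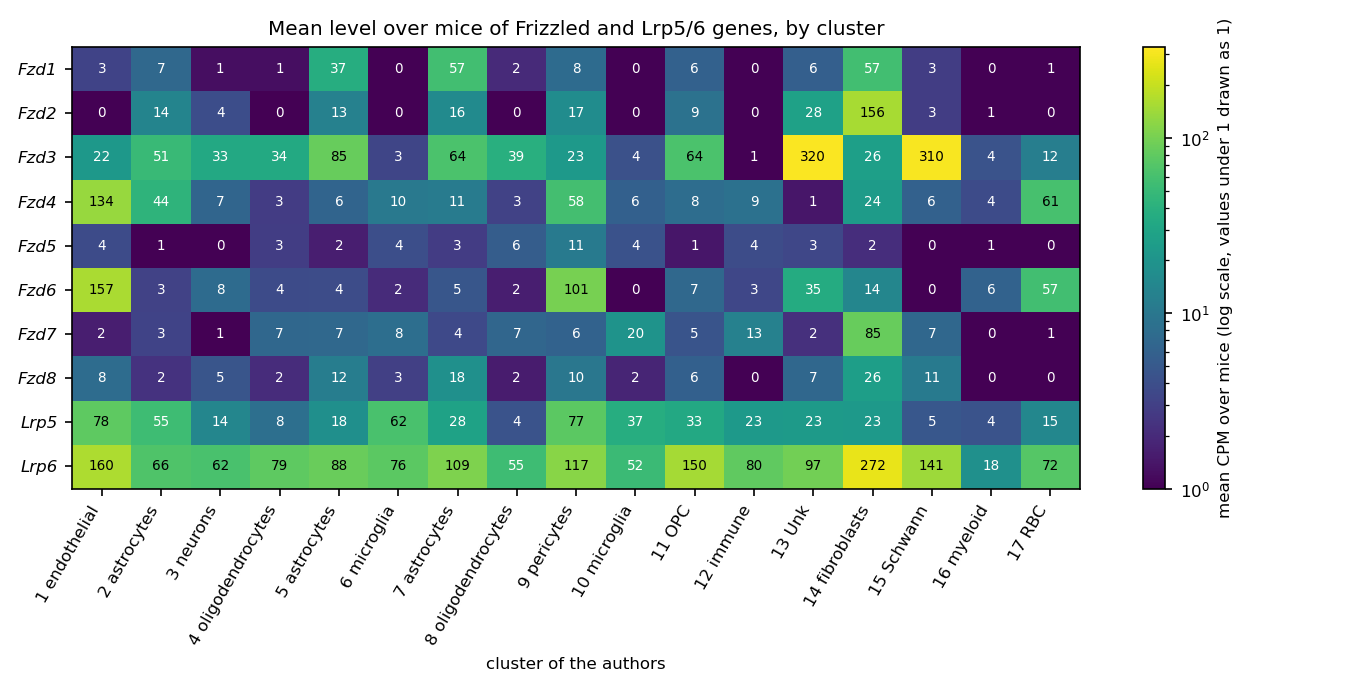
Mean CPM over mice of each gene in each cluster, printed in the cells and coloured on a log scale on which values under 1 are drawn as 1. Fzd3 stands at 319.9 CPM in Cluster 13 and 309.8 CPM in Schwann cells, and Lrp6 is at 20 CPM or more in 16 of the 17 clusters.

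Clusters of the same cell type were compared inside each mouse as the log2 ratio of CPM plus 10, and not tested, since these counts also made the clusters. In 12 of 14 mice Fzd1 was higher in Cluster 7 than in Cluster 5, with a mean log2 ratio of 0.77 ± 1.01 (0.77 in batch 1 and 0.78 in batch 2, 7 mice each, the batch being the replicate number). Fzd3 went the other way in 9 of 14 mice, at −0.45 ± 1.05. Lrp5 was higher in Cluster 7 in 10 mice, at 0.49 ± 1.23, and Lrp6 in 12, at 0.41 ± 1.69, but the mean for Lrp6 was −0.44 in batch 1 and 1.27 in batch 2. All of these means were smaller than the SD over mice.

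Microglia of Cluster 10, with Apoc1, Lpl and Spp1 among their leading genes, were compared with those of Cluster 6, led by P2ry12 and Tmem119. Both co-receptors were lower in Cluster 10, Lrp5 in 12 of 14 mice (mean log2 ratio −0.90 ± 1.02) and Lrp6 in 11 (−0.67 ± 1.18). Fzd7 was higher in Cluster 10 in 10 of 14 mice, at 0.61 ± 1.15. These 3 means were smaller than the SD over mice, and for Lrp6 2 uninjured mice had 0 UMIs in Cluster 10. Between the oligodendrocyte clusters, Lrp6 was lower in Cluster 8 than in Cluster 4 in 13 of 14 mice, at −0.43 ± 0.35, a mean larger than its SD and alike in both batches (−0.45 and −0.41). With thinned cells, over 13 mice, it was −1.28. Fzd3 was higher in Cluster 8 in 7 mice and lower in 7.

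The genes whose means ran most like those of each receptor over the 17 clusters were found among 11603 genes with at least 500 UMIs. For Fzd4 they were Bsg (Pearson r = 0.95), Cdh5 (0.94), a cadherin of endothelial junctions, and Smco4 (0.94). For Fzd6 they were Akap2 (0.97), C130074G19Rik (0.93) and Ocln (0.92), which codes for the tight junction protein occludin. Fzd1 ran with Egfr (0.93), Thbs2 (0.90) and F3 (0.90), and Fzd3 with Hmgn3 (0.93), Mpdz (0.91) and Fat1 (0.91). Fzd2 ran with Chpf (0.95), Gas1 (0.94) and Ccdc80 (0.91), and Fzd7 with Htra3 (0.91), Prps2 (0.90) and Slc26a2 (0.90). Values were lower for Fzd8 (2700081O15Rik 0.90, Plod2 0.88, Adamts12 0.87), Lrp6 (Ggcx 0.88, Cdk7 0.87, Carm1 0.87), Lrp5 (Ctbp2 0.86, Mapk1ip1l 0.84, Ptp4a3 0.82) and the sparse Fzd5 (Mrpl2 0.80, Nabp2 0.79, Yy1 0.78). Among the 10 receptors, Fzd1 and Fzd8 were the most alike pair (r = 0.85), followed by Fzd1 with Fzd2 (0.78), Fzd2 with Fzd8 (0.77), Fzd8 with Lrp6 (0.76) and Fzd4 with Fzd6 (0.76). Fzd3 and Fzd4 had r = −0.23. All clusters come from the same libraries, and these r values describe 17 points.

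Endothelial values are given by mouse because the study asks how injury and the loss of Ryk act on the cells around astrocytes. Fzd4 was at 325 and 72.7 CPM in the 2 WT uninjured mice (replicates 1 and 2) and at 138 and 61.0 CPM in the 2 cKO uninjured mice. The WT mouse at 1 d had 119 CPM and the cKO mice 149 and 95.9 CPM. WT mice had 113 and 99.8 CPM at 7 d and 97.3 and 134 CPM at 14 d, and cKO mice had 99.0 and 168 CPM at 7 d and 169 and 169 CPM at 14 d. Uninjured mice thus held both the highest and the lowest values, and injured mice lay inside their range.

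Fzd6 was at 179.8 and 159.9 CPM in WT uninjured mice and 99.9 and 134 CPM in cKO uninjured mice. At 1 d it was at 119 CPM in WT and at 144 and 91.1 CPM in cKO. At 7 d WT mice had 143 and 208 CPM and cKO mice 99.0 and 218 CPM, and at 14 d the values were 160.4 and 192 CPM in WT and 191 and 215 CPM in cKO. The 3 values at 1 d were below those of both WT uninjured mice and overlapped with cKO uninjured, and all 4 at 14 d were above the median of the uninjured mice, 147 CPM.

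Lrp5 was at 93.3 and 47.7 CPM in WT uninjured mice and 53.8 and 50.9 CPM in cKO uninjured mice, and injured mice ranged from 47.8 to 119 CPM with a median of 84.3 CPM (n = 11). Lrp6 ranged from 106 to 201 CPM in the 4 uninjured mice and from 99.1 to 199 CPM in the 11 injured ones. Apart from WT uninjured replicate 1, uninjured mice were low in Lrp5, and for Lrp6 the groups overlapped throughout.

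In 3 mice, WT uninjured replicate 2, cKO uninjured replicate 2 and cKO 1 d replicate 2, the cells of Cluster 1 held more RNA of oligodendrocyte and astrocyte markers. Summed over 6 oligodendrocyte markers, all 6 of them counted and Mbp the most abundant, they had 4201 to 7528 CPM, against 927 to 3017 CPM in the other 12 mice. For the 8 astrocyte markers, all 8 counted and with Slc1a2 the most abundant, it was 1575 to 2041 CPM against 102 to 614 CPM, and endothelial markers were at 14486 to 15758 CPM against 17368 to 20087 CPM. Pericyte markers were at 752, 570 and 1543 CPM in the 3 mice and 446 to 1478 CPM in the others. Between 39.0% and 39.7% of their Cluster 1 cells had been moved there by the authors from Cluster 2, against 8.70% to 32.3% elsewhere. Over all mice, the 1155 moved cells (median 577 UMIs per cell) had 47.6 CPM of Fzd4, 38.3 of Fzd6, 31.7 of Lrp5 and 66.1 of Lrp6, and the 3046 first cells (median 1729.5) had 158, 192, 83.2 and 179 CPM. In the first cells alone Fzd4 was at 93.9, 72.8 and 107 CPM in these 3 mice, which overlaps with the 101 to 325 CPM of the others, and Fzd6 at 204, 164 and 103 CPM, inside the 102 to 227 CPM of the others. Lrp5 was at 61.7, 58.3 and 68.2 CPM there, inside the 49.4 to 132 CPM of the others, and Lrp6 at 128.8, 143.6 and 114.3 CPM, below the 144.2 to 203.4 CPM of every other mouse. The part of these other markers in the values of the receptors was not tested.

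**Figure D3:**
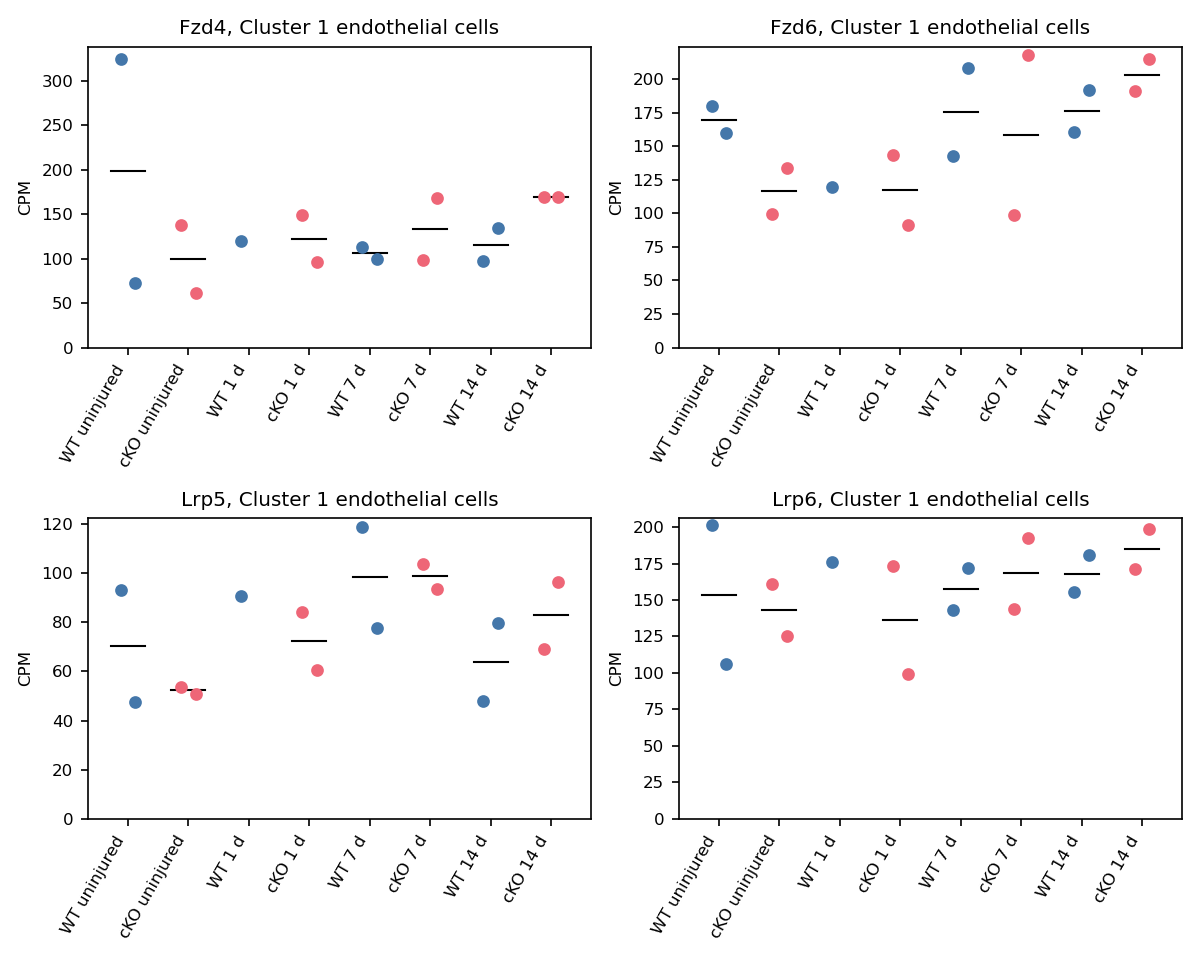
CPM of Fzd4, Fzd6, Lrp5 and Lrp6 in endothelial cells of each mouse (points, WT blue and cKO red) by condition, with the mean of the condition as a line. WT uninjured replicate 1 lies at 325 CPM for Fzd4, apart from the other 14 mice at 61.0 to 169 CPM.

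The test of injury summed UMIs per mouse over 7 classes of cells and compared 1 d, 7 d and 14 d with uninjured, averaged over genotypes. A gene enters after a filter on low counts, which left 28 member and class pairs: Lrp6 was tested in 7 classes, Fzd3 and Lrp5 in 5, Fzd4 in 4, Fzd6 in 3, Fzd8 in 2, Fzd1 and Fzd2 in 1, and Fzd5 and Fzd7 in none. By edgeR with an adjusted p threshold of 0.05, 0 of the 28 were called at 1 d, 7 d or 14 d. All genes were called at a rate of 0.0522% at 1 d (33 of 63177 tests), 0.0174% at 7 d (11) and 0.179% at 14 d (113). At an unadjusted p under 0.05 the count was also 0 at each time, and DESeq2 called 0, with 0 unadjusted. For all genes, 4008, 4247 and 4535 of 63177 tests had an unadjusted p under 0.05 by edgeR at 1 d, 7 d and 14 d. By DESeq2 it was 2309, 2287 and 2096. The lowest adjusted p of the receptors by edgeR was 0.748 at 1 d, 0.635 at 7 d and 0.39 at 14 d.

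At 1 d 7 of the 28 log2 folds were above 0 and 21 below, with a median of −0.57. In neurons, where the WT mouse at 1 d had 7570 UMIs in all and 0 of the 4 receptors tested, the median at 1 d was −3.56 for the receptors and −2.98 for all genes. In OPC it was −2.21 for 3 receptors and −0.14 for all genes, and there the same mouse had 0 UMIs of Fzd3, 0 of Lrp5 and 2 of Lrp6. At 7 d 19 were above 0 and the median was 0.07, and at 14 d 14 were above 0 and the median was 0.00. In endothelial cells the median of the 5 receptors tested was −0.32, −0.06 and 0.03 at the 3 times, beside −0.09, −0.04 and −0.01 for all genes. In Clusters 2, 5 and 7 together the median of 8 receptors was −0.62, 0.28 and 0.18, beside −0.34, −0.03 and 0.01.

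By edgeR, Fzd6 in endothelial cells at 1 d had a log2 fold of −0.52 (SE 0.34, adjusted p = 0.922), and −0.02 without the 3 mice with high oligodendrocyte markers, an alternative chosen after seeing the data. Lrp5 at 7 d had 0.39 (SE 0.26, adjusted p = 0.635 by edgeR), and all 4 mice at 7 d were above 3 of the 4 uninjured mice. For Fzd4 at 7 d the value was −0.35 (SE 0.34), with 0.26 without WT uninjured replicate 1 and −0.78 without the 3 mice with high oligodendrocyte markers.

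With the conditions of the titles, Fzd3 in Cluster 5 astrocytes had values that did not overlap between uninjured and 7 d or 14 d, and it was singled out after they were seen. The share of all genes that separate in this way is not given, so the separation is not read as a result about Fzd3. Fzd3 was at 30.8, 58.2 and 49.9 CPM in 3 uninjured mice, and at 36.8, 0 and 79.0 CPM at 1 d, with 0 to 38 UMIs per mouse. At 7 d the 4 mice had 93.8 and 114 CPM in WT and 107 and 96.1 CPM in cKO, from 2 to 38 UMIs. At 14 d they had 126 and 129.9 CPM in WT and 146 and 125 CPM in cKO, from 21 to 58 UMIs. The 4 mice at 14 d were above all others, and the 2 replicate 1 mice at 7 d rest on 2 and 3 UMIs. By the cell names the mouse at 49.9 CPM, cKO uninjured replicate 2, is a WT 7 d mouse, and uninjured and 7 d then overlap. The names also make cKO 14 d replicate 2, at 125 CPM, a 7 d mouse and WT 7 d replicate 2, at 114 CPM, a 1 d mouse.

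Fitted alone, Cluster 5 gave Fzd3 a log2 fold of 0.34 (SE 0.67) at 7 d and 0.95 (SE 0.64) at 14 d (adjusted p = 1.00 for both by edgeR). Cluster 7 gave 0.77 (SE 0.44, adjusted p = 0.753 by edgeR) and 0.82 (SE 0.41, adjusted p = 0.657 by edgeR), so none passed the test. In Cluster 7 the uninjured mice ranged from 21.7 to 95.5 CPM, with a median of 35.6 CPM, and the 14 d mice from 60.0 to 107 CPM, with a median of 88.4 CPM, and these overlap. In Clusters 2, 5 and 7 together the fold at 14 d was 0.71 (SE 0.46, adjusted p = 1.00 by edgeR). Fzd1 in the same class had −0.49 (SE 0.44) at 14 d and 0.0794 without WT uninjured replicate 1. That mouse had 92.8 CPM of Fzd1, the other uninjured mice 16.2 to 28.4 CPM, and the 14 d mice 19.3 to 39.1 CPM. Lrp6 had 0.39 (SE 0.34) at 14 d, with uninjured mice at 54.0 to 81.9 CPM and 14 d mice at 81.3 to 120 CPM, which overlap in the narrow band where they meet. The mix of these clusters differed between mice: Cluster 7 gave 80.05% and 84.5% of the UMIs of the class in the replicate 1 uninjured mice, 18.6% and 25.3% in the replicate 2 ones and 47.8% to 58.9% at 14 d. With all mice pooled, Fzd1 was at 49.7, 23.1 and 8.77 CPM in Clusters 7, 5 and 2, and Lrp6 at 134, 55.1 and 51.0 CPM. Clusters 7 and 5 alone gave −0.22 (SE 0.39) and −0.92 (SE 0.66) for Fzd1 at 14 d and 0.47 (SE 0.32) and 0.03 (SE 0.59) for Lrp6. The part of the mix in the values of the class was not tested.

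**Figure D4:**
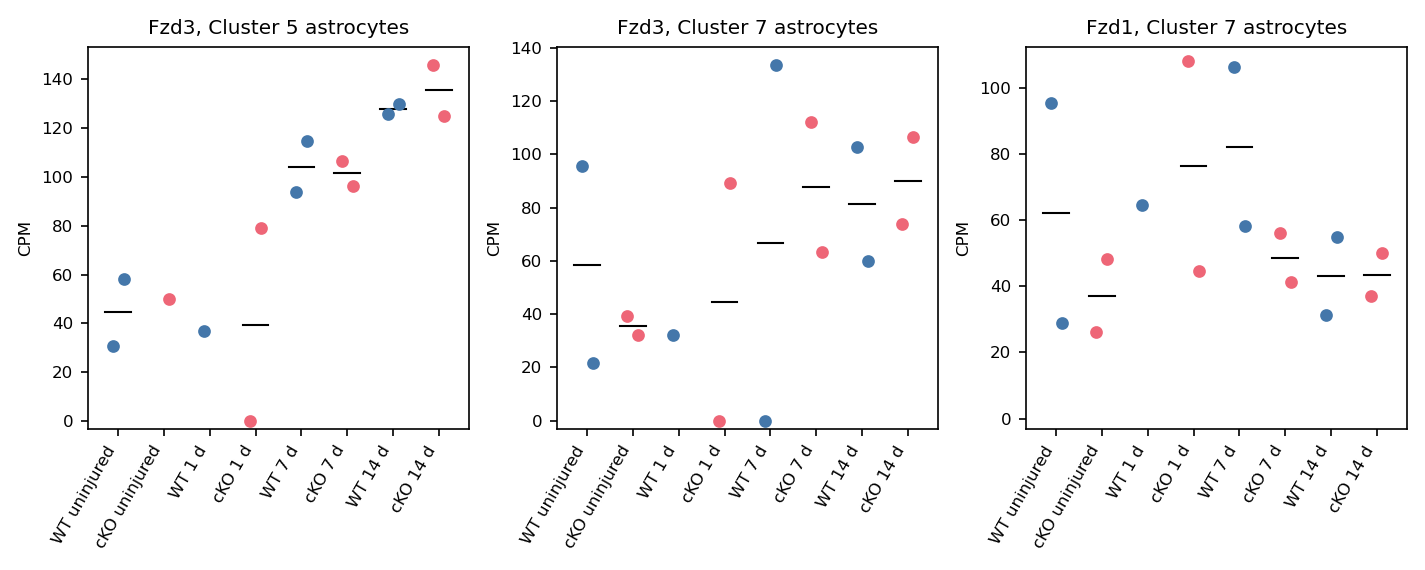
CPM of Fzd3 in Cluster 5, Fzd3 in Cluster 7 and Fzd1 in Cluster 7 for each mouse (points, WT blue and cKO red) by condition, with the mean as a line. Fzd3 in Cluster 5 was between 30.8 and 58.2 CPM in uninjured mice and between 125 and 146 CPM at 14 d.

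Clusters 4, 5, 6, 7, 8 and 10, which the classes join, were also fitted alone, a choice made after seeing the data. Of 16 tests of the receptors at each time, edgeR called 0, with 0, 1 and 2 at an unadjusted p under 0.05 at 1 d, 7 d and 14 d, while all genes were called in 0.0719%, 0.122% and 0.151% of 41748 tests. DESeq2 was not run on these. The unadjusted ones were Lrp6 in Cluster 10 (adjusted p = 0.313 at 7 d and 0.226 at 14 d by edgeR) and Fzd8 in Cluster 7 (log2 fold −1.86, SE 0.85, adjusted p = 0.605 by edgeR). Of all genes in Cluster 10, 921 and 1077 of 6788 had an unadjusted p under 0.05 by edgeR at 7 d and 14 d. In Cluster 7 it was 616 of 7966 at 14 d. Lrp6 in Cluster 10 was at 0, 0 and 42.4 CPM in 3 uninjured mice, from 1 UMI in all, and at 50.3 to 92.3 CPM in the 4 mice at 14 d, from 193 UMIs, so no fold is given. Fzd8 in Cluster 7 was at 10.2 to 26.1 CPM in uninjured mice and at 1.66 to 8.52 CPM at 14 d, from 12 and 8 UMIs.

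The genotypes were compared as cKO against WT over the injured mice, in 9 classes and 29 member and class pairs, Fzd3 in Cluster 13 being the added one. By edgeR 0 of 29 receptors were called, 0 had an unadjusted p under 0.05, and DESeq2 called 0 with 0 unadjusted. All genes had 0 calls in 68022 tests by edgeR, a percentage of 0, with 2293 at an unadjusted p under 0.05 by edgeR and 609 by DESeq2. The log2 folds were above 0 in 21 and below in 8, with a median of 0.29, and the median of all genes was also above 0 in each of the 9 classes. In 9 of the 21 the WT mouse at 1 d had 0 UMIs of the receptor (4 in neurons, 2 in OPC and Fzd2, Fzd4 and Fzd6 in Clusters 2, 5 and 7 together). The other 20 were above 0 in 12 and below in 8, with a median of 0.06. In neurons and OPC the medians of the receptors were 2.42 and 1.58, beside 2.01 and 0.23 for all genes, and single folds in these classes are not given. The lowest adjusted p of the receptors by edgeR was 0.769. In Clusters 2, 5 and 7 together, which the authors label astrocytes, the median of the 8 receptors was 0.32 and that of all genes 0.15. Clusters alone gave 0 of 16 receptors called and 0 unadjusted by edgeR, with a rate of 0.0024% for all genes. Unadjusted, all genes had from 127 of 5369 in Cluster 8 to 394 of 7966 in Cluster 7.

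Fzd1 in Clusters 2, 5 and 7 together had a lowest, median and highest value of 19.3, 52.5 and 78.7 CPM in 5 injured WT mice and 20.5, 34.1 and 75.1 CPM in 6 injured cKO mice. Its log2 fold for cKO against WT was −0.51 (SE 0.47, adjusted p = 1.00 by edgeR), and the groups overlapped over nearly their whole range. Fzd3 in the same cells was at 31.5, 88.3 and 127 CPM in WT and 0, 84.5 and 120.1 CPM in cKO. Ryk itself was at 54.0 to 157 CPM in 7 WT mice and 23.0 to 123 CPM in 8 cKO mice in these clusters, ranges that overlap. In Cluster 5 alone it was at 75.9 ± 31.6 CPM in WT and 77.8 ± 43.8 CPM in cKO (n = 7 each). Cluster 7 had 152 ± 39.4 CPM in WT (n = 7) and 117 ± 55.4 CPM in cKO (n = 8). Where the counted tags lie relative to the deleted part was not tested.

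In endothelial cells Fzd4 was at 97.3, 113 and 134 CPM in injured WT mice (lowest, median and highest of 5) and at 95.9, 158 and 169 CPM in injured cKO mice (n = 6). The log2 fold was 0.36 (SE 0.30, adjusted p = 1.00 by edgeR), and 4 of 6 cKO mice were above the highest WT mouse. With a mouse left out the fold ran from 0.19 (without cKO 7 d replicate 2) to 0.45 (without cKO 1 d replicate 2). Pericytes had Fzd6 at 77.6, 126 and 176 CPM in WT and 23.7, 80.9 and 111 CPM in cKO, with a log2 fold of −0.53 (SE 0.46, adjusted p = 1.00 by edgeR). In Cluster 13, Fzd3 was at 140.4, 348 and 386 CPM in 4 injured WT mice and at 210.6, 383 and 502 CPM in 5 cKO mice, with a log2 fold of 0.56 (SE 0.42, adjusted p = 0.818 by edgeR).

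Fibroblasts, in which Fzd2, Fzd7 and Lrp6 had their highest means, reached 9 mice and were fitted in a way chosen after seeing the data. By edgeR 0 of 4 receptors were called for cKO against WT and 0 had an unadjusted p under 0.05, with 0 of 4113 genes called, a percentage of 0, and DESeq2 was not run. Of the 4113 genes, 304 had an unadjusted p under 0.05 by edgeR. The log2 folds were −0.03 (SE 1.15) for Fzd1, 0.28 (SE 0.69) for Fzd2 and −0.33 (SE 0.64) for Lrp6, and the median of all genes was 0.95. Fzd7 had 0, 1 and 3 UMIs in the WT mice at 1 d, 7 d and 14 d and 131 in the 5 injured cKO mice, of which 86 came from 1 mouse, so no fold is given for it (adjusted p = 0.632 by edgeR). These counts follow depth, as all fibroblast UMIs ran from 5446 to 994874 per mouse. In CPM, Fzd7 was at 0, 46.2 and 19.7 in the WT mice and at 59.5 to 273 in the cKO mice, with 2 UMIs behind the 273.

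Whether injury acted differently in the 2 genotypes was tested as the difference of their injury effects. By edgeR 0 of 28 receptors were called, 2 had an unadjusted p under 0.05, and DESeq2 called 0 with 1 unadjusted. All genes had 0 calls in 63177 tests by edgeR, a percentage of 0, with 2387 at an unadjusted p under 0.05 by edgeR and 739 by DESeq2. For clusters alone edgeR called 0 of 16 with 0 unadjusted, at a rate of 0.00479% for all genes, which had from 146 of 7929 (Cluster 5) to 440 of 7966 (Cluster 7) unadjusted. The 2 unadjusted receptor tests were Fzd4 in endothelial cells (log2 difference 1.49, SE 0.58, adjusted p = 1.00 by edgeR) and Fzd4 in Clusters 2, 5 and 7 together (adjusted p = 1.00 by edgeR), where it had 86 UMIs in all, with 0 in the WT mouse at 1 d and 2 in the 2 cKO uninjured mice, so no value is given. The endothelial difference comes with the uninjured mice, WT at 325 and 72.7 CPM and cKO at 138 and 61.0 CPM, and it was 0.32 without WT uninjured replicate 1. With the conditions of the cell names it was 2.07 (adjusted p = 0.144 by edgeR), the lowest adjusted p of a receptor in any fit, and other settings gave adjusted p up to 1.00.

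A list of 84 other Wnt pathway genes, all 84 of them in the files, covers ligands, inhibitors, other receptors, receptor turnover, the signal's core and targets in 8 groups. By edgeR 0 were called up and 0 down at 1 d, 7 d and 14 d in 232 gene and class tests each, and 0 in 248 tests of cKO against WT. With clusters alone 1 of 140 was called up at 7 d and at 14 d and 0 down: Ctnnb1, which codes for β-catenin, in microglia of Cluster 10 (adjusted p = 0.0491 and 0.0316 by edgeR). It was at 36.6 to 42.4 CPM in 3 uninjured mice, from 1 UMI in each, at 203 to 284 CPM at 7 d and at 174 to 347 CPM at 14 d (4 mice each), so no fold is given. In that cluster 48 of 6788 genes (0.707%) were called at each time, and the median of all genes was 1.27 and 1.33. Without a filter on low counts edgeR also called Dkk2, an inhibitor that binds Lrp6, at 14 d in microglia (adjusted p = 0.00508) and in neurons (adjusted p = 0.00745), among 902 calls in 196741 tests. Dkk2 had 0 UMIs in the uninjured mice of both classes, and 152 and 55 in the 4 mice at 14 d, with medians of 24.7 and 10.4 CPM. Depth differed as well, with 477668 UMIs of all genes in uninjured microglia and 4916989 at 14 d. In neurons these were 956465 and 4833347.

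Of 8 partners and targets of these receptors, 5 had their highest mean in endothelial cells and 3 in Cluster 7. Adgra2 and Reck, which present Wnt7a and Wnt7b to Frizzleds, were at 145 ± 40.4 and 144 ± 42.9 CPM in endothelial cells (n = 15). The targets Lef1, Apcdd1 and Axin2 were at 1114 ± 361, 413 ± 124 and 111 ± 45.1 CPM there. Ndp, the gene of norrin, had its highest mean in Cluster 7 astrocytes, 24.4 ± 16.2 CPM (n = 15), as did Tspan12, a partner of Fzd4, at 90.9 ± 31.8 CPM, with 82.2 ± 29.0 CPM in endothelial cells, and Znrf3, which removes Frizzleds from the membrane, at 288 ± 52.7 CPM. For Adgra2, Axin2, Ndp and Tspan12 the step to the next cluster was within the spread. Pericytes had 129.9 ± 27.1 CPM of Adgra2 and 83.8 ± 53.9 CPM of Axin2 (n = 15), and Schwann cells 22.3 ± 36.9 CPM of Ndp (n = 5).

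By edgeR 0 of these 8 genes passed the test in endothelial cells or in Clusters 2, 5 and 7 together, where Adgra2 was tested only in the former and Ndp only in the latter. In endothelial cells Axin2 at 14 d had a log2 fold of 0.70 (SE 0.25, adjusted p = 0.654 by edgeR), Lef1 0.54 (SE 0.27), and Znrf3 at 7 d 0.87 (SE 0.33, adjusted p = 0.546 by edgeR). At 1 d Adgra2 had −0.59 (SE 0.26), Apcdd1 −0.65 (SE 0.32) and Reck −0.57 (SE 0.33). Adgra2 (87.9 CPM), Apcdd1 (197 CPM), Axin2 (28.8 CPM) and Lef1 (435 CPM) had their lowest endothelial value of the 15 mice in cKO 1 d replicate 2. That mouse is 1 of the 3 described above, with 4201 CPM of the 6 oligodendrocyte markers, 1684 CPM of the 8 astrocyte markers and 14566 CPM of the 8 endothelial markers, and the part of these markers in the folds was not tested. In Clusters 2, 5 and 7 together Ndp had −1.36 (SE 0.81), −0.60 (SE 0.53) and −0.69 (SE 0.47) at 1 d, 7 d and 14 d. The folds of Axin2, Lef1 and Znrf3 are against 4 uninjured mice of which 2, replicate 2 of each genotype, are among the same 3, with 7528 and 7357 CPM of the oligodendrocyte markers. Znrf3 was at 70.6 and 55.9 CPM in these 2 and at 145 and 138 CPM in the other uninjured mice, and the part of the markers here was not tested. Tspan12 had a log2 difference of 1.11 (SE 0.63) between the injury effects of the genotypes in Clusters 2, 5 and 7 together.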

How the data were processed

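The authors ran Cell Ranger on mm10 (GRCm38) and Seurat in R 4.1.2 and deposited raw UMI counts per cell, with clusters and batch. Titles gave conditions. The 10 members and the lists were chosen with earlier results of these data known. UMIs were summed per mouse (at least 10 cells) over 9 classes with at least 10 mice, and fitted as group means with edgeR 4.0.16 (TMM, filterByExpr, quasi-likelihood) in R 4.3.3, adjusting p by Benjamini-Hochberg over all genes of a class. Residual degrees of freedom were 7 in endothelial cells, and WT 1 d, with 1 mouse, is assumed to vary like the other groups. DESeq2 1.42.0 was the other tool. Python 3.11.15 did the rest (scipy 1.17.1, pandas 2.3.3, numpy 2.4.6, and matplotlib 3.10.9 for figures). Intervals are exact (95%) and, like the floor of 3 UMIs for a count of 0, cover counting error only. Code was tested on simulated data.

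The rule for named genes took all members, any listed gene past the threshold, 8 partners and targets, and for each member with at least 100 UMIs the 3 genes of at least 500 UMIs with the highest Pearson r of log2(mean CPM + 10) over clusters. Alternatives were DESeq2, no filter, at least 30 cells, the replicate block, the series of animal numbers (split at 10000), the conditions of the cell names, clusters before cells were moved, pooled or thinned counts, 1 and 50 CPM added before log2, each batch, each mouse left out, and 3 chosen after seeing the data (clusters alone, fibroblasts, endothelial cells without 3 mice). All mice at 14 d and all replicate 2 mice had animal numbers above 10000. Replicate 1 of the other conditions had lower numbers, so time and series cannot be fully told apart. Pairing by replicate number comes from the authors' batch, which equals it in 16 of 16 mice. As a check, the deviation of each mouse from its group was correlated across pairs of conditions, giving a median r of 0.0647 in endothelial cells (10 of 21 pairs above 0.1), 0.0780 in Clusters 2, 5 and 7 together (10 of 21) and 0.251 in oligodendrocytes (15 of 21).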

Additional observations from a re-analysis of the deposited data

Results flagged for a closer look

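In 15 of 90 groups of 4 to 10 mice, 1 mouse lay far from the others in CPM of a receptor. The rule is set to flag about 1 in 20 groups by chance, but that rate assumes independent groups and does not allow for low counts. The groups share mice and several flagged values rest on few UMIs, so whether 15 is more than chance gives was not tested. WT uninjured replicate 1 was such a mouse 4 times among the 4 uninjured mice: Fzd1 at 92.8 CPM (34 UMIs, others 16.2 to 28.4) and Fzd3 at 81.9 CPM (30 UMIs, others 39.2 to 44.1) in Clusters 2, 5 and 7 together, where Cluster 7 gave 90 of its 136 cells and 52 of 581, 20 of 32 and 65 of 540 in the others, Fzd4 at 169 CPM in pericytes (43 UMIs, others 32.2 to 48.1) and Lrp5 at 93.3 CPM in endothelial cells (96 UMIs, others 47.7 to 53.8).

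Fzd3 in oligodendrocytes of injured WT mice was at 86.6 CPM in WT 7 d replicate 2 (19 UMIs, others 27.7 to 38.7). Lrp6 was low in neurons of cKO uninjured replicate 1, at 34.6 CPM (12 UMIs, others 79.1 to 88.2), and in oligodendrocytes of WT 14 d replicate 1, at 51.9 CPM (18 UMIs, others 73.5 to 80.8).

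The other 8 values rest on 1 to 3 UMIs. Fzd1 was at 184 CPM in fibroblasts of WT 1 d replicate 1 (1 UMI), and Fzd7 at 273 CPM (2 UMIs) and Fzd8 at 136 CPM (1 UMI) in those of cKO 1 d replicate 1. Fzd4 and Fzd6 were each at 229 CPM (2 UMIs) in red blood cells of WT 7 d replicate 1. Fzd7 was at 92.8 CPM (3 UMIs) in immune cells of cKO 7 d replicate 1, and Fzd8 at 9.83 CPM (2 UMIs) in neurons of cKO uninjured replicate 2 and at 44.6 CPM (1 UMI) in neurons of WT 7 d replicate 1.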

How the results depend on the processing

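The count of 0 receptors called held under the 28 values of the alternatives and the 43 with a mouse left out. For 12 of the log2 folds, all 85 values under the alternatives kept their sign, as did 163 of 165 with a mouse left out. Those that did not were Fzd4 in endothelial cells at 7 d, ranging from −0.63 to 0.26, and Fzd1 in Clusters 2, 5 and 7 together at 14 d, from −0.83 to 0.0794, both highest without WT uninjured replicate 1. The cause was not tested. Some kept their sign but fell close to 0. Fzd6 in endothelial cells at 1 d went from −0.52 to −0.02 without the 3 mice with high oligodendrocyte markers. Lrp6 in microglia at 14 d went from 0.32 to 0.02 with the conditions of the cell names. Of 820 levels, 797 moved by no more than the SD over mice and 23 moved by more, not all of which are named here. Thinned to 1000 UMIs, Fzd3 in Cluster 13 was at 205 CPM (319.9 before) and Lrp6 in Cluster 8 against Cluster 4 at −1.28 (−0.43 before), over 7 and 13 mice. The 14 shares stayed within their interval or SD when taken as the mean over mice.

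Counts of all genes called moved more. At 1 d, 7 d and 14 d they were 33, 11 and 113, and 110, 41 and 74 with DESeq2, 369, 398 and 902 without a filter, 65, 572 and 1491 with the animal number series, 4, 2 and 41 by the cell names' conditions, 33, 10 and 39 with at least 30 cells (5, 6 and 6 classes), and 31, 25 and 155 with the replicate block, the pairing by batch. With clusters before the move 3 classes gave 5, 4 and 90, against 10, 1 and 81. With a mouse left out and 7 classes fitted they ran from 8 to 46 at 1 d, 6 to 36 at 7 d, and 12 (without cKO 14 d replicate 1) to 147 at 14 d. Leaving out a cKO uninjured mouse also reduced the classes to 5, with 5 or 3 at 1 d, 0 at 7 d and 72 or 67 at 14 d, against 10, 1 and 81 there with all mice. For cKO against WT they were 0, 72 without a filter and at most 1 otherwise, and for the difference of injury effects 0, 37 without a filter 5 with the animal number series or the cell names, 4 without WT uninjured replicate 2, and 0 otherwise.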
